A study of Homo sapiens with 4 samples.

Results

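The CDK inhibitor genes of the CIP/KIP and INK4 families and the retinoblastoma, or pocket protein, genes were followed in HEK293 cells given siRNA against MIF, the gene of the cytokine macrophage migration inhibitory factor. They were listed by family name, but with earlier results of these data known, so counts of members beside all genes are a description. The 10 genes are CDKN1A, CDKN1B and CDKN1C (CIP/KIP), CDKN2A, CDKN2B, CDKN2C and CDKN2D (INK4), and RB1, RBL1 and RBL2 (pocket proteins). The platform gene table named 15 probes for 9 of them and none for CDKN2C, which was not analysed here. The array held 18774 genes with a probe of their own. RNA was taken at 24 h and hybridised to 4 single-colour Illumina Human-6 bead arrays. MIF siRNA was on 2 arrays, called 1# and 2# as in the labels, control RNA on 1 and untreated cells on 1. The transfected cells had also received the transfection reagent Lipofectamine, and the untreated cells had not been transfected. Doses of 50 and 100 pmol/ml stand in the series description, but only 2# is labelled with one (50 pmol/ml), so 1# was assigned none. Whether both arrays hold the same siRNA sequence is not given in the labels. No label ties the arrays to separate cultures, and p-values therefore measure only the spread between these 4 arrays, which may be technical.

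CIP/KIP proteins (p21, p27 and p57) bind and inhibit cyclin-CDK complexes, above all those of CDK2. INK4 proteins bind CDK4 and CDK6 and keep D cyclins off them. Both act on the same step: active G1 kinases phosphorylate the pocket proteins, which otherwise hold E2F factors in check and keep S phase genes silent. HEK293 is a human embryonic kidney line that carries the adenoviral E1 region, whose products bind pocket proteins and p53. This line is therefore a limited model of the pathway.

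The targeted gene was measured by 1 probe and was lower in both MIF siRNA arrays. MIF signal was 11614 in 1# and 17040.2 in 2#, against 22463 with control RNA and 21908 in untreated cells. That is 51.7% of control RNA in 1# and 75.9% in 2#, and the difference from both control arrays was -0.66 ± 0.18 (SE, log2, limma, adjusted p 0.0744). All signals given here are quantile-normalized linear intensities, on which the probes of different genes cannot be ranked by RNA amount. Of 8 HEK293 markers, 7 were above the filter on dim probes, a mean signal over the median of all probes (75.6). Of the 7, VIM lay above both control arrays (0.36, log2), KRT18 and CDH2 below them (-0.31 and -0.25) and the other 4 overlapped. Over all genes 32.6% lay above and 28.7% below, and 0 of the 7 were called by limma. With the arrays brought to a common median 3 of the 7 lay above and 2 below, against 46.8% and 17.4% of all genes. There CDH2 overlapped, KRT8 turned to below (-0.24), and LHX1 (0.19) and NEFM (0.06) turned to above. The summed signal of the HEK293 markers was 33679 in 1# and 40722 in 2#, against 38808 with control RNA and 41197 in untreated cells, and its part in the results was not tested. PAX2 was below the filter, at 67.6 and 72.9 in 1# and 2#, against 68.8 with control RNA and 74.6 in untreated cells. Of 17 markers of fibroblasts, blood, endothelium and hepatocytes on the array, 11 were above the filter, and none exceeded 372.8 on any array. Their summed signal was 2116 in 1# and 2077 in 2#, against 2130.2 with control RNA and 2077.4 in untreated cells. Of the 11, 3 lay above and 4 below both control arrays, against 32.6% and 28.7% of all genes. The furthest above was the fibroblast collagen gene COL3A1, at 257.4 in 1# and 134.0 in 2#, with 105.1 and 105.4 in control RNA and untreated cells, and its part in the results was not tested. No marker was listed at 0. Deposited signals were never below 39.8, so a signal near the median of all probes says little about whether a gene is expressed.

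In the MIF siRNA arrays all 3 CIP/KIP genes and all 3 pocket protein genes had higher signals than in both control arrays, whereas the INK4 genes had no common direction. Of the 9 genes measured, 6 lay above both control arrays in both MIF siRNA arrays, against 32.6% of all 13755 genes tested. CDKN2D alone lay below them, against 28.7% of all genes, and CDKN2A and CDKN2B overlapped with them. CDKN2A was taken by its brightest probe, annotated to NM_058195, the transcript of another protein, ARF. Its probe annotated to NM_000077, the transcript of the INK4 protein p16, lay below both control arrays. The median log2 difference of the 9 genes between MIF siRNA and both control arrays was 0.36, against 0.01 over all genes. All 9 genes passed the filter on dim probes through at least 1 probe. In RNA of whole cultures, more cells expressing a gene and more RNA per cell cannot be told apart.

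None of the members passed limma's test at an adjusted p of 0.05. In the fit of the 2 MIF siRNA arrays against both control arrays (2 residual degrees of freedom), 0 of 9 members and 0% of all genes were called. At an unadjusted p under 0.05 the fit picked 6 of 9 members, the same 6 genes that lay above both control arrays, against 29.7% of all genes. Adjusted p-values in limma ran from 0.0585 for CDKN1B to 0.993 for CDKN2A, while the smallest over all genes was 0.0501. Calls near this threshold turned on the setting: 3 members (CDKN1B, RBL1 and RBL2) were called with the arrays brought to a common median, where 11.5% of all genes were called. Without array 1# the calls were 2 (CDKN1A and CDKN1B) against 11.2% of all genes, and without array 2# they were 5 against 33.6%. Without array 1# the log2 differences were smaller, at 0.62 for CDKN1B, 0.37 for CDKN1A, 0.30 for CDKN1C and 0.24 for RB1, and without array 2# they were 1.34, 0.88, 0.79 and 0.78. An exact permutation test of 2 arrays against 2 cannot give a two-sided p below 0.333, so it was not used.

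**Figure D1:**
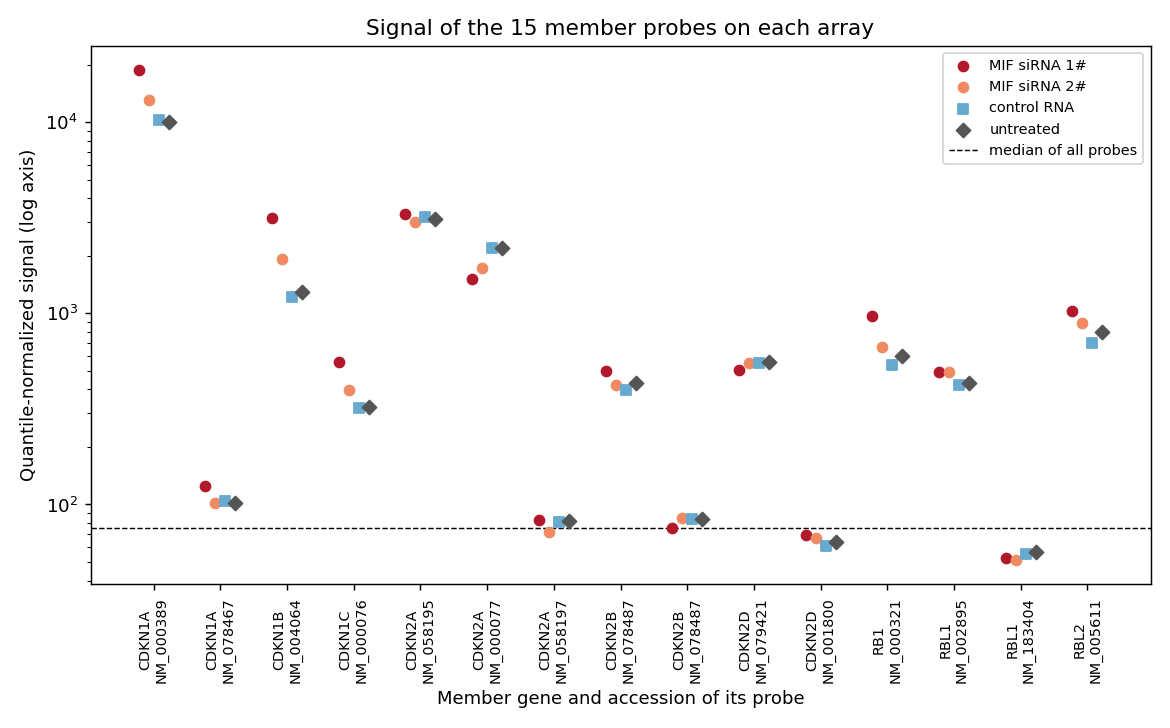
Quantile-normalized signal (log axis) of the 15 probes of the members on the 4 arrays, each point 1 array, with the median of all probes as a dashed line. The 3 CIP/KIP probes with accessions NM_000389, NM_004064 and NM_000076 are highest in 1#, next in 2# and lowest in the control arrays, while 2 probes, of CDKN2D and RBL1, lie under the line on every array.

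CDKN1B encodes p27, which holds cyclin E and cyclin A complexes of CDK2 inactive in quiescent cells. Its probe gave 3171 in 1# and 1930.4 in 2#, against 1219 with control RNA and 1286 in untreated cells. Both MIF siRNA arrays were above both controls, 1# further than 2#. Against control RNA the ratio was 2.60-fold in 1# and 1.58-fold in 2#. The log2 difference from both control arrays was 0.98 ± 0.22 (SE, limma, adjusted p 0.0585), larger than in 99.5% of genes. It was the only member at least 1.5-fold higher in each of the 4 comparisons of 1 MIF siRNA array with 1 control, a rule met by 0.742% of all genes. No member was 1.5-fold lower in all pairs (0.4% of all genes). The smallest of its 4 pairs, 2# against untreated, lay at that limit, with a log2 difference of 0.59. Read from the series value table or after a normexp background correction, it fell short of the rule.

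CDKN1A encodes p21, the CDK inhibitor induced by p53. Its probe for NM_000389 gave 18692 in 1# and 13089.7 in 2#, against 10226.5 with control RNA and 10058 in untreated cells. The control arrays were within 0.02 of each other on the log2 scale, and both MIF siRNA arrays were above them. The difference from both control arrays was 0.63 ± 0.17 (SE, log2, limma, adjusted p 0.0732). A second probe, for the transcript NM_078467 of the same protein, was dim and overlapped between groups. It gave 125.6 in 1# and 101.7 in 2#, against 103.9 with control RNA and 101.9 in untreated cells. Only 1# was higher at this probe.

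CDKN1C encodes p57, an imprinted inhibitor active in development. Its signal was 556.9 in 1# and 397.0 in 2#, against 319.6 with control RNA and 323.3 in untreated cells. As for CDKN1A, 1# was the highest array and 2# the next. Its difference from both control arrays was 0.55 ± 0.16 (SE, log2, limma, adjusted p 0.0875). For all 3 CIP/KIP genes control RNA and untreated cells differed by 0.08 or less on the log2 scale.

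The start regions of CDKN1B and CDKN1A are shown because these genes had the highest differences of the members, and that of RBL1 because it carries matches to the E2F motif. They run from 250 bases before to 50 after a start site, on GRCh38.p14 from RefSeq, both strands being searched for TTTCGCG or TTTGGCG or else TTTCCCG (E2F), for GTAAACA (FOXO) and for GGGCGG (the SP1 box). Capitals mark the matches. CDKN1B lies at chr12:12717118-12717417 (+), CDKN1A at chr6:36678464-36678763 (+) and RBL1 at chr20:37095948-37096247 (-).
CDKN1B: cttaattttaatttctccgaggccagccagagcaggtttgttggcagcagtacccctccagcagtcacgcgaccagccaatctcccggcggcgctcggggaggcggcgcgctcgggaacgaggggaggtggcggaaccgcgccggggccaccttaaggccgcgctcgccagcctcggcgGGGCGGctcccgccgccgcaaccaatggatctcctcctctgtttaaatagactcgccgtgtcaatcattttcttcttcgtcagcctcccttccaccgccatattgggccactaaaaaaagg
CDKN1A: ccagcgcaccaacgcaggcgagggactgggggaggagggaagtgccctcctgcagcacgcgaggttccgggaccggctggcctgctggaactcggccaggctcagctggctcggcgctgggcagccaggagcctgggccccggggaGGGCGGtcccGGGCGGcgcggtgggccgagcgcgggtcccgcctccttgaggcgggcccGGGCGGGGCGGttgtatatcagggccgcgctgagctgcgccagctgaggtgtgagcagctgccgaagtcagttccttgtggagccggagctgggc
RBL1: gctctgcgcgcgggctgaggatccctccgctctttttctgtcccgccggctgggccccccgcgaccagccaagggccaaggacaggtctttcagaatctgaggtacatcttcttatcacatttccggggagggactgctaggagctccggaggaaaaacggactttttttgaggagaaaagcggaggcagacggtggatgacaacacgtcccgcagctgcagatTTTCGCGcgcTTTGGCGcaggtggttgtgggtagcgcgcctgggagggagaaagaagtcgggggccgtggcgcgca
The capitals in CDKN1B are 1 SP1 box and those in CDKN1A 4, the last pair of which overlap by 1 base. Windows with an SP1 box made up 45% of the 35116 start windows in the table. In RBL1 the capitals are TTTCGCG at base 225 and TTTGGCG at base 235 of the window, and an E2F match stood in 7.21% of all windows. The table had 13 windows for 9 members, CDKN2C included and CDKN1C not. Of the 13, only 1, that of RBL1, held an E2F match and 8 held an SP1 box, against 7.21% and 45% of all windows. The only RB1 window may lie at an alternative start, so the main RB1 start may not have been searched. None of the 13 held the FOXO motif, which 3.42% of all windows held. Absence of a match says only that these letters are not in these windows.

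RB1 encodes the retinoblastoma protein. Its signal was 969.7 in 1# and 667.7 in 2#, against 533.8 with control RNA and 596.8 in untreated cells. Both MIF siRNA arrays were higher than both controls, but 2# exceeded untreated cells by only 0.16 on the log2 scale, about as far as the 0.16 by which control RNA was under untreated cells. The difference from both control arrays was 0.51 ± 0.18 (SE, log2, limma, adjusted p 0.122).

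RBL2 encodes p130, the pocket protein that with E2F4 and the MuvB core forms the DREAM repressor in quiescent cells. It gave 1027 in 1# and 895.6 in 2#, against 702.5 with control RNA and 798.2 in untreated cells. The groups did not overlap, and the gap between the control arrays (-0.18, control RNA minus untreated, log2) exceeded that between 2# and untreated cells (0.17). Its difference from both control arrays was 0.36 ± 0.11 (SE, limma, adjusted p 0.099).

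RBL1 encodes p107, a pocket protein of cycling cells whose gene is itself an E2F target. Its brighter probe, for NM_002895, gave 494.5 in 1# and 491.6 in 2#, against 421.7 with control RNA and 434.6 in untreated cells. Unlike the other 5 genes above both controls, it was almost equal in 1# and 2#, differing by 0.01 on the log2 scale. Its difference from both control arrays was 0.20 ± 0.08 (SE, limma, adjusted p 0.165), and 0.046 with the mean of both its probes (adjusted p 0.742). The probe for NM_183404 was under the filter, at 52.2 and 51.3 in 1# and 2#, against 55.3 with control RNA and 56.6 in untreated cells.

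**Figure D2:**
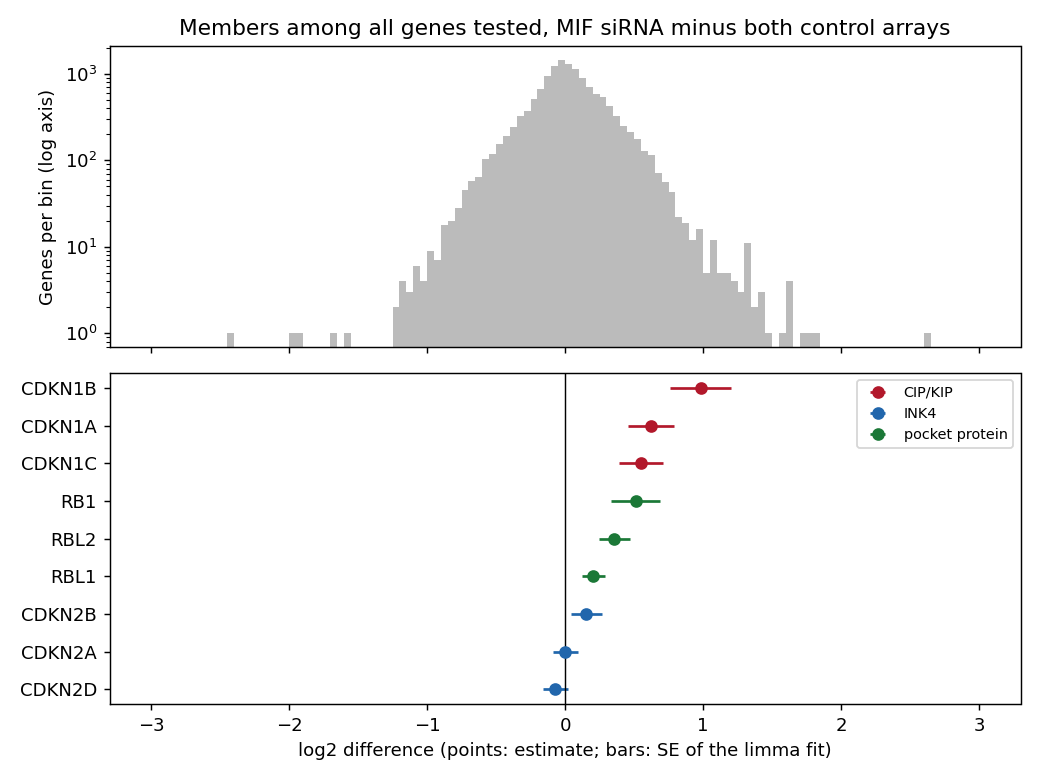
Upper panel: number of genes (log axis) by log2 difference between MIF siRNA and both control arrays, over 13755 genes. Lower panel: the 9 members on the same axis, points showing the estimate and bars the SE of the limma fit. The CIP/KIP genes stand highest, from 0.55 to 0.98, then the pocket proteins, from 0.20 to 0.51, and the INK4 genes lie from -0.07 to 0.15. CDKN2A is shown by its ARF probe, for NM_058195. Its p16 probe, for NM_000077, is not shown and differed by -0.44 in the fit by probe.

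The INK4 genes differed by probe. CDKN2A encodes 2 unrelated proteins from alternative first exons, p16, which binds CDK4 and CDK6, and ARF, which stabilises p53. The probe annotated to the p16 transcript NM_000077 gave 1510.0 in 1# and 1729 in 2#, against 2201 with control RNA and 2197 in untreated cells. Here the control arrays were almost equal and both MIF siRNA arrays were lower, 1# the lowest. The probe annotated to the ARF transcript NM_058195 gave 3317 in 1# and 3009 in 2#, against 3202 with control RNA and 3108 in untreated cells, so its groups overlapped. In a fit with each probe on its own, the p16 probe differed from both control arrays by -0.44 ± 0.09 (SE, log2, limma, adjusted p 0.054), and the ARF probe by 0.00 ± 0.09 (adjusted p 0.993). That fit called 3.32% of 24350 probes and 0 of the 13 member probes that passed the filter. At an unadjusted p under 0.05 it took 25% of all probes. Among the 13 these were the p16 probe and the 6 that lay above both control arrays.

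The log2 difference at the p16 probe minus that at the ARF probe was -0.59 for 1# and -0.26 for 2# against control RNA, and -0.63 and -0.30 against untreated cells. Between control RNA and untreated cells it was -0.04. With the arrays brought to a common median, with the series value table and with normexp the mean of the 4 pairs was -0.37, -0.42 and -0.45, against -0.45 here. The 4 pairs share 4 arrays, and these 2 probes were set side by side after their values were seen, so the values are a description with no test. Probe sequences were not used here, and p16 and ARF transcripts share exons, so what each probe detects rests on its annotation alone. A further CDKN2A probe, for NM_058197, stood near the median of all probes, at 83.0 and 71.7 in 1# and 2#, against 80.7 with control RNA and 82.1 in untreated cells.

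The start windows of CDKN2A are shown because p16 and ARF have separate first exons. The gene runs on the minus strand, and the window at chr9:21974808-21975107 lies at the first exon of p16, that at chr9:21995275-21995574 upstream at the first exon of ARF (GRCh38.p14, RefSeq).
p16 start: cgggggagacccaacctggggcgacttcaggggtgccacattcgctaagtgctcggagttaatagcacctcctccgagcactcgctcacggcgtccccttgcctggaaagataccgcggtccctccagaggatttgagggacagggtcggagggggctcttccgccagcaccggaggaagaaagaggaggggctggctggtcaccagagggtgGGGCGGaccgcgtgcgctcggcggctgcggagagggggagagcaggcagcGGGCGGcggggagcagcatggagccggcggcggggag
ARF start: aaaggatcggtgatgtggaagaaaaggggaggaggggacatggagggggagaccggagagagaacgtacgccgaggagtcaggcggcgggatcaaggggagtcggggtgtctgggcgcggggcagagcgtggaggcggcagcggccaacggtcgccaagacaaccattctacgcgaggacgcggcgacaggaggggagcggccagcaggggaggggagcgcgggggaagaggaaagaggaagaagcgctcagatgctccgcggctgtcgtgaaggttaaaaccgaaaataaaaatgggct
Capitals mark 2 SP1 boxes in the p16 window, and the ARF window held none of the motifs searched.

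CDKN2B, the neighbouring gene of p15, an INK4 protein induced by TGF-beta, gave 499.7 in 1# and 424.5 in 2#, against 396.9 with control RNA and 431.6 in untreated cells at its brighter probe. The groups overlapped, 2# lying between the controls, and the difference was 0.15 ± 0.11 (SE, log2, limma, adjusted p 0.412). Its other probe gave 75.1 and 85.2 in 1# and 2#, against 83.6 with control RNA and 84.0 in untreated cells. CDKN2D, the gene of p19, gave 506.2 in 1# and 551.3 in 2#, against 552.6 with control RNA and 557.6 in untreated cells. Although both MIF siRNA arrays were the lower ones, 2# stood only 0.003 under control RNA on the log2 scale. Its difference of -0.07 ± 0.09 (SE, limma, adjusted p 0.646) turned to 0.12 when the arrays were brought to a common median instead. A dim CDKN2D probe for NM_001800 did not pass the filter, at 69.3 and 66.4 in 1# and 2#, against 61.0 and 63.6 in control RNA and untreated cells.

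By probe, 6 of the 13 probes that passed the filter lay above both control arrays and 2 below, against 26.3% and 29.5% of all probes. The 2 below were those of CDKN2A for p16 and of CDKN2D. The 6 above were the single or brightest probes of the CIP/KIP and pocket protein genes.

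**Figure D3:**
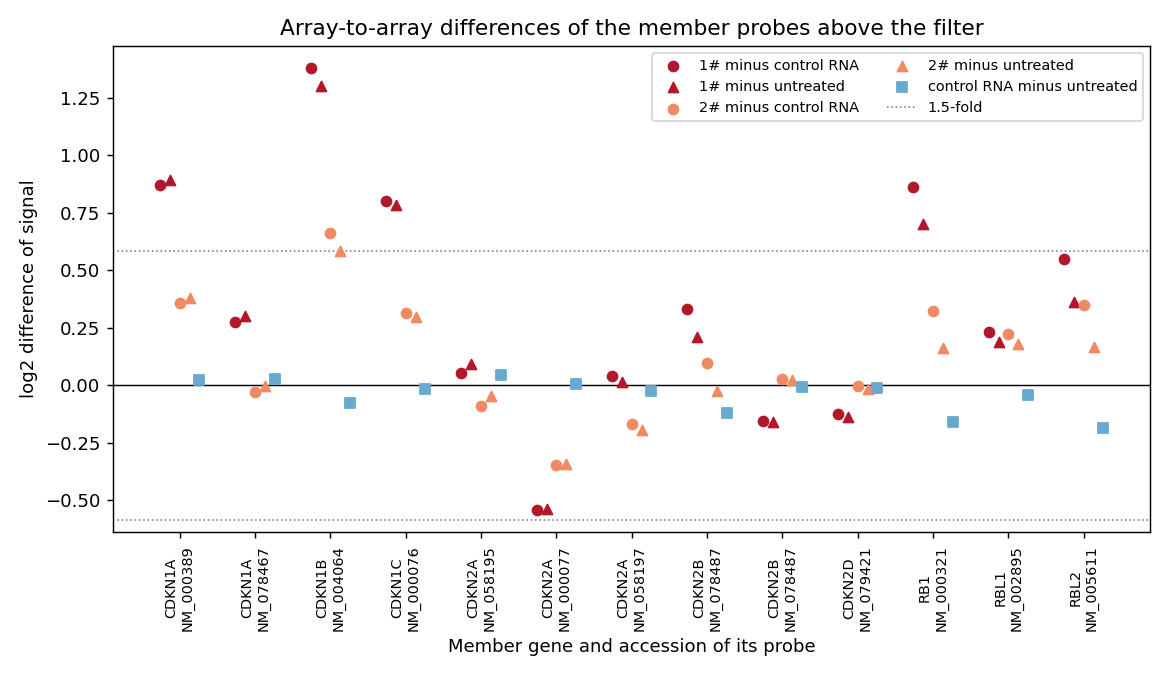
Log2 differences of signal between single arrays for the 13 member probes above the filter: 1# and 2# each minus control RNA and minus untreated, and control RNA minus untreated. Dotted lines mark 1.5-fold; CDKN1B reaches it in all 4 pairs, and the NM_000077 probe of CDKN2A is the only one with all 4 pairs below -0.3.

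The MIF siRNA arrays differed in how far the members lay from the controls. At 1# the CDKN1B, CDKN1A, CDKN1C and RB1 signals, 4 of 9 genes, were at least 1.5-fold above both control arrays, against 5.13% of all genes. At 2# this held for CDKN1B, 1 of 9, against 0.872% of all genes. In all 6 genes above both controls 1# was the higher array, as it was in 75.2% of all genes above both controls. CDKN1B was 1.64-fold higher in 1# than in 2#, the only member past 1.5-fold, which 1.21% of genes reached. CDKN1A was 1.43-fold, RB1 1.45-fold and CDKN1C 1.40-fold higher in 1#. MIF itself was lower in 1# than in 2#. With 1 array each, this difference has no replicate check, and dose, siRNA and array cannot be told apart.

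Control RNA left the members close to untreated cells. The largest of their differences, in RBL2, was 0.18 in size on the log2 scale, and 0 of 9 reached 1.5-fold, against 0.0945% of all genes. In the limma fit on group means, with 1 residual degree of freedom, control RNA minus untreated gave 0 of 9 members at an unadjusted p under 0.05, against 0.473% of genes, and 0% of genes passed adjustment. The same fit called 0 of 9 members and 0% of genes for MIF siRNA minus control RNA, and 0 of 9 and 0% for MIF siRNA minus untreated. At an unadjusted p under 0.05 it picked 3 of 9 members (CDKN1A, CDKN1B and RBL2) against control RNA, where 16.8% of genes were picked, and 2 of 9 (CDKN1A and CDKN1B) against untreated cells, where 12.8% were. The comparisons share arrays and are not independent, and the spread in this fit comes only from 1# against 2#. For control RNA minus untreated, 1 array each, the SE of the members ran from 0.15 (RBL1) to 0.35 (CDKN1B, log2). A lack of calls there therefore says little. The differences of MIF siRNA were alike for CDKN1B, at 1.02 ± 0.30 from control RNA and 0.94 ± 0.30 from untreated cells (SE, log2). RBL2 instead stood 0.45 ± 0.15 above control RNA and 0.26 ± 0.15 above untreated cells.

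Among 13 genes of G1 cyclins, kinases and their activators, all measured, 6 lay above both control arrays and 5 below, against 32.6% and 28.7% of all genes. Of the 13, 0 were called by limma and 8 had an unadjusted p under 0.05 (3 higher, 5 lower), against 29.7% of all genes. Their median difference was -0.03, against 0.01 over all genes. CCND2, a D cyclin, gave 4338 in 1# and 4117 in 2#, against 2507 with control RNA and 2993 in untreated cells. CDC25A, the phosphatase that activates CDK2, gave 997.8 and 1377 in 1# and 2#, against 1854 with control RNA and 1624 in untreated cells. CCNH and CDK7 encode subunits of the CDK-activating kinase. CCNH gave 1017 and 1197 in 1# and 2#, against 1710.4 with control RNA and 1665 in untreated cells. CDK7 gave 2125 and 2546 in 1# and 2#, against 3175 with control RNA and 3069 in untreated cells. Both were lower in the MIF siRNA arrays than in either control. In limma their adjusted p-values were 0.0501 and 0.0715. CDK4, the kinase bound by INK4 proteins, named after its values were seen, overlapped between groups, at 6147 and 6256 in 1# and 2#, against 6387 with control RNA and 6250.1 in untreated cells.

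Among 10 E2F and DP genes, 5 lay above both control arrays and 2 below, against 32.6% and 28.7% of all genes, with 0 called and a median difference of 0.14. E2F7, an atypical E2F that represses transcription, gave 2040.7 in 1# and 1534 in 2#, against 947.1 with control RNA and 1062 in untreated cells (0.82 ± 0.15, SE, log2, limma, adjusted p 0.0515). E2F2, an activator, was higher by 0.36 and E2F8, another repressor, by 0.30. E2F4, the main partner of p130 and p107, was lower, at 975.2 and 1121 in 1# and 2#, against 1345 with control RNA and 1369.5 in untreated cells. Of 7 DREAM and MuvB genes 2 were above both controls and 1 below (32.6% and 28.7% of all genes), with 0 called and a median difference of 0.07. FOXM1, a mitotic transcription factor, was higher by 0.27 and the DNA-binding MuvB subunit gene LIN54 by 0.24, while LIN52 was lower by 0.20 with control RNA above untreated cells by 0.27. MYBL2 overlapped, at 117.2 and 125.0 in 1# and 2#, against 123.9 with control RNA and 104.3 in untreated cells.

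Of 19 measured E2F target genes of S phase entry, a list that holds RBL1 and 3 genes of the lists above, 12 lay above both control arrays and 3 below, against 32.6% and 28.7% of all genes. The median difference was 0.12, and 0 were called. CDT1, a licensing factor of replication origins, had the highest, with 5532 in 1# and 4128 in 2#, against 2189 with control RNA and 2097 in untreated cells (1.16 ± 0.15, SE, log2, limma, adjusted p 0.0501). RRM2, a ribonucleotide reductase subunit, was higher by 0.41 and the cyclin gene CCNE2 by 0.34, while the helicase subunit gene MCM6 was lower by 0.37.

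Regulators of the inhibitor genes were measured for 14 of 16, with 9 above both control arrays and 2 below (32.6% and 28.7% of all genes), 0 called and a median difference of 0.16. FOXO4 and FOXO3 encode forkhead factors known to activate CDKN1B. FOXO4 gave 1813 in 1# and 1415 in 2#, against 891.1 with control RNA and 796.5 in untreated cells. FOXO3 gave 5109 in 1# and 4349 in 2#, against 2991 with control RNA and 2844 in untreated cells. Both had an adjusted p of 0.0501 in limma. MYC, a repressor of CDKN1A and CDKN2B, gave 263.1 and 385.2 in 1# and 2#, against 520.0 with control RNA and 438.7 in untreated cells (-0.59 ± 0.19, SE, log2, limma, adjusted p 0.105). ID1, an inhibitor of helix-loop-helix factors, was higher by 0.37. Of 10 ubiquitin ligase subunits acting on p27 and p21, 4 were above both controls and 3 below (32.6% and 28.7% of all genes), with 0 called and a median difference of 0.08. DTL, the CUL4 adaptor for p21, was higher by 0.38 and its partner DDB1 by 0.29, whereas RBX1 was lower by 0.36 and CKS1B, the cofactor of SKP2 on p27, by 0.27.

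**Figure D4:**
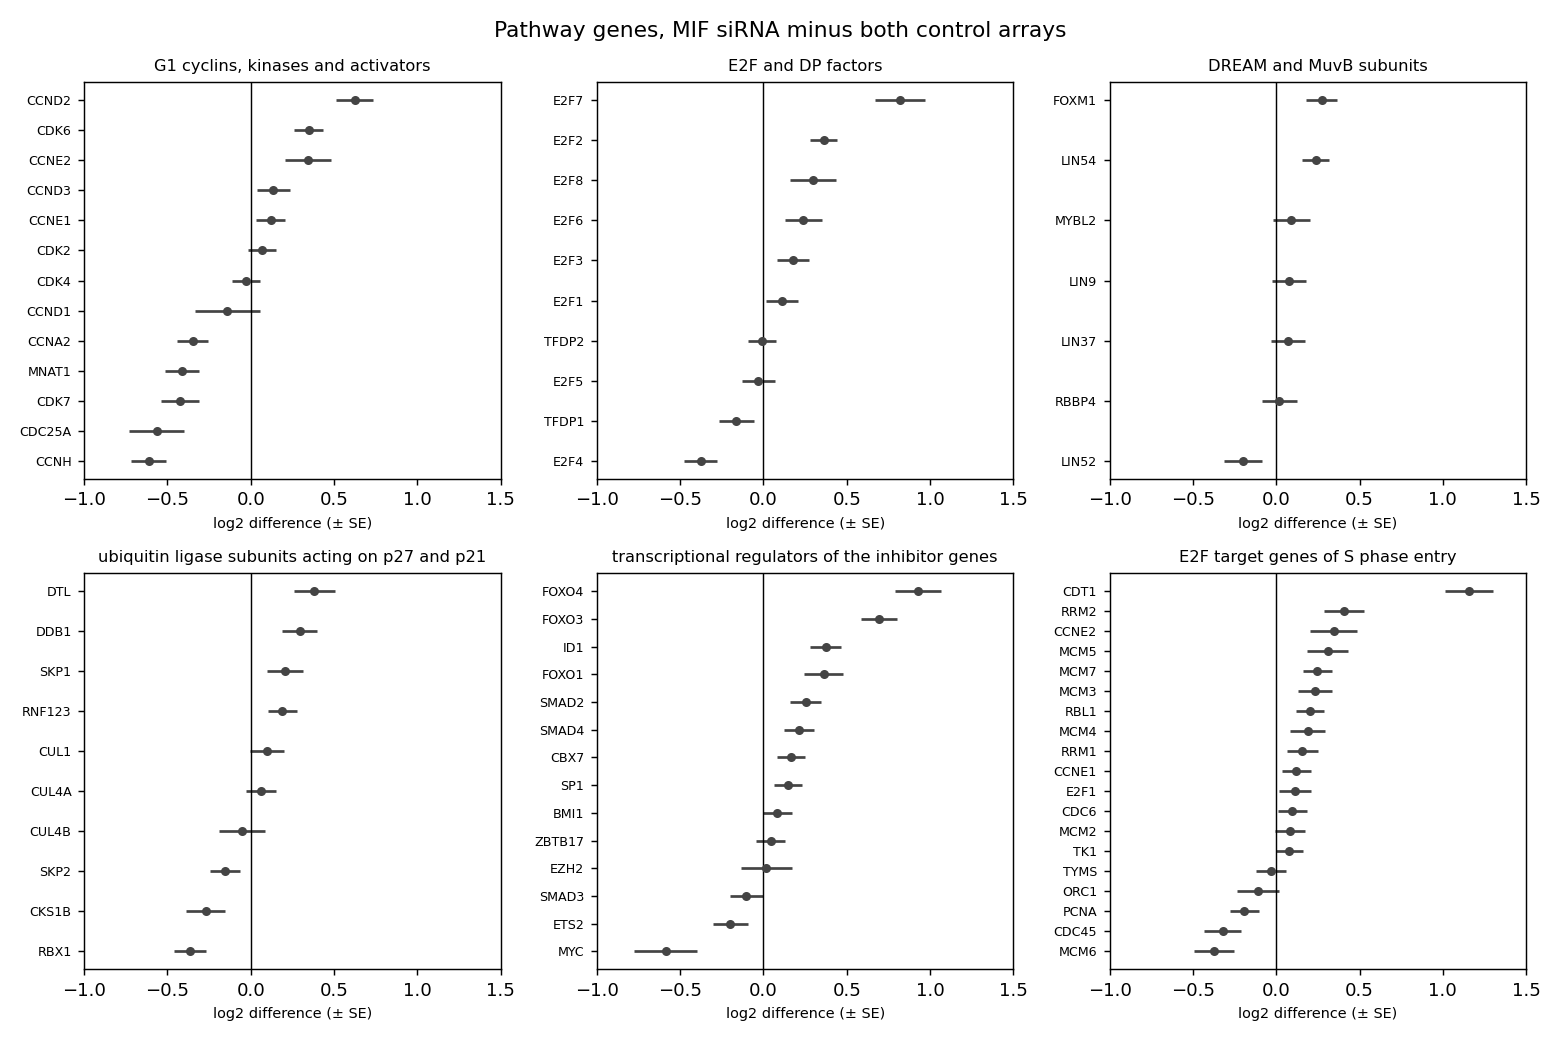
Log2 difference between MIF siRNA and both control arrays (points, with the SE of the limma fit as bars) for the measured genes of 6 pathway lists. CDT1 at 1.16 and FOXO4 at 0.93 stand highest, and CCNH at -0.61 and MYC at -0.59 lowest.

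The genes nearest in pattern were ranked by the Euclidean distance over 3 log2 differences (1#, 2# and control RNA, each minus untreated), which rest on 4 arrays. For CDKN1B they were C5, DPYSL2, SEMA6A, IFIT2 and YPEL3, at distances of 0.10 to 0.14. For CDKN1A they were GRAMD2B, SALL2, USP11, SGPL1 and EIF4A2, at 0.02 to 0.04, and for RB1 GPNMB, NCOA2, TP53BP2, DCBLD2 and SCN9A, at 0.02 to 0.05. With so few arrays many genes share a pattern by distance alone.

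Of 7 housekeeping genes, 2 lay above both control arrays and 4 below (32.6% and 28.7% of all genes), with 0 called and a median difference of -0.04. The scaling of the arrays moved these counts. When the arrays were brought to a common median in place of quantile normalization, 46.8% of all genes lay above both control arrays and 17.4% below, and 8 of the 9 members lay above and 0 below. The direction of the 3 CIP/KIP and 3 pocket protein genes, each by its single or brightest probe, was the same under all 4 scalings tried. So was the lower signal of the p16 probe, which was below both controls by 0.22 or more. In the deposited, unscaled signals it was below them by 0.096 or more. The scalings are not independent, since normexp was also followed by quantile normalization. The CDKN1B difference was 0.98 with either of these, 0.96 with the series value table and 1.08 with the common median. Of the genes named from the pathway lists, LIN52 overlapped and MYBL2 lay above both control arrays with that scaling, and CDK4 lay below them with the series value table. PPIA and TBP, housekeeping genes named after their values were seen, turned from below both controls to above them with the common median. The other pathway genes named stood on the same side under all 4.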

How the data were processed

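Total RNA of HEK293 cells had been hybridised to 4 Illumina Human-6 arrays, 1 sample each, grouped by title. Each array has a table deposited by the authors with 1 intensity for every probe on a linear scale. BeadStudio is the tool that stands in the submitters' processing notes (version not given in the sources used here). Their medians ran from 71.9 to 78.5 with no negative values, so they had not been scaled to a common median or quantiles; whether another normalization or a background step was applied is not known here. No detection p-values were used here, so no bound on dim probes could be set. A value table of the whole series, likewise deposited as intensity, had a median of 73.8 in every column, so it was normalized by a method not stated there. From row 19832 its identifiers stand 1 row off, so it was matched by position.

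Probes were named through the platform table, with symbols updated by Entrez identifier to RefSeq GRCh38.p14: of 48701 probes, 23687 had 1 gene, 35 several and 24979 none listed, and 23651 matched. Intensities were quantile-normalized, floored at 32 (0 values were below it) and log2-transformed. Each gene took its probe with the highest mean, and genes with a mean over the median of all probes (75.6) were kept. Tests were two-sided, by limma 3.58.1 in R 4.3.3 with Benjamini-Hochberg adjustment over all genes. The fit on group means assumes that the lone control arrays vary like the MIF siRNA pair, and the fit of 2 against 2 counts the difference between control RNA and untreated cells as spread. Steps were tested on simulated data. Named are all members and their probes, MIF, the 4 largest differences of each pathway list, and 5 nearest genes in pattern, placeholder names passed over. Members and lists were chosen with earlier results of these data known. No background correction was made in the values shown. The number of arrays limits the precision.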

Additional observations from a re-analysis of the deposited data

How the results depend on the processing

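The fit of the MIF siRNA arrays against both control arrays called 0 of 9 members, and 0 again with the series value table, normexp with an offset of 50, no filter, the mean of all probes and a floor of 64. It called 3 (CDKN1B, RBL1, RBL2) with arrays brought to a common median (median scaling), 2 (CDKN1A, CDKN1B) with an intensity trend in the variance and 1 (CDKN1B) with a filter at percentile 75. Leaving out 1 MIF siRNA array gave 2 to 5, the 2 without 1# being CDKN1A and CDKN1B and the 5 without 2# adding CDKN1C, RB1 and RBL2, the remaining array being taken to vary as the 2 controls do. Over all genes those calls numbered 1581 (11.5%), 1007 (7.32%) and 927 (10%), with 590 (3.14%) without a filter, 1542 (11.2%) without 1# and 4624 (33.6%) without 2#, against 0 in the reported fit. The fits on group means could not be tested without a MIF siRNA array, and called 0 members under the other settings. Over all genes the trend gave them 76 calls against control RNA and 22 against untreated cells. By probe, 0 members were called, 2 after median scaling and 1 to 6 without 1 MIF siRNA array, with 1517 (6.23%), 1441 (5.92%, without 1#) and 5656 (23.2%, without 2#) calls over all probes, against 808 (3.32%). By the 1.5-fold rule 1 member was higher, but 0 with the series value table (0.727% of all genes), 0 with normexp (0.705%), 0 by a 2-fold rule (0.0727%) and 1 to 4 without 1 MIF siRNA array (0.872% without 1#, 5.13% without 2#). The count of members under both controls was 1 (28.7%), 0 after median scaling (17.4%) and 1 to 2 without 1 array (41.3% without 2#, 36.6% without 1#). CDKN2A, at 0.00, turned to -0.0011 with the series value table and -0.17 with the mean of its probes, and ran from -0.068 to 0.073 without 1 array. CDKN2D turned to 0.12 with median scaling and 0.026 with the mean of its probes, and went to -0.0099 without 1#. Other differences moved by over 1.5 times in the same direction. With the mean of probes CDKN1A went to 0.38, CDKN2B to 0.044 and RBL1 to 0.046, and with median scaling CDKN2A went to 0.030, CDKN2B to 0.35 and RBL1 to 0.40. Without 1# CDKN1A was 0.37, CDKN1B 0.62, CDKN1C 0.30, RB1 0.24 and CDKN2B 0.037, and without 2# RB1 was 0.78, CDKN2B 0.27 and CDKN2D -0.13. The cause of these shifts was not tested. No paired analysis was possible because the control groups have 1 array each and the labels number only the MIF siRNA arrays. Without background correction, differences of dim probes may be understated.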
